A study of Homo sapiens with 30 samples.

Results

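The cytosolic HSP70 family was followed here through 7 genes, taken by gene name from the expression files: HSPA1A, HSPA1B, HSPA1L, HSPA6, HSPA8, HSPA4 and HSPH1. All 7 were listed among the 22538 gene names of the files, and all 7 were among the 8531 genes tested. Of these, HSPA1A, HSPA1B, HSPA8, HSPA4 and HSPH1 reached 1 FPKM (reads of a transcript scaled to its length and to the size of the library) in 30 of 30 libraries. HSPA6 did so in 8 libraries and HSPA1L in 3, so these genes passed the filter only through the groups in which they were high. Calls of HSPA6 and HSPA1L that involve those groups, interactions included, are therefore no support, also within the counts of called members below.

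The cells were BEAS-2B, an established line derived from human bronchial epithelium. Wells were held on a rocker for 30 min under 1 of 5 conditions: an internal control, charcoal burnt with no shisha, charcoal with herbal shisha free of tobacco, charcoal with tobacco shisha, or an electronic heater with tobacco shisha. RNA was taken from 3 wells per condition at 2 h and at 24 h, which gave 10 groups and 30 libraries of 50 bp single reads. The amount of each exposure was the highest that released no LDH at 24 h, so exposures were matched by this toxicity measure and not by smoke mass. The labels do not say what the control wells received or whether wells were independent cultures, so p-values measure the spread between wells, which may be technical.

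Proteins of the HSP70 family bind stretches of unfolded protein in a cycle driven by ATP. J-domain co-chaperones deliver the client and start ATP hydrolysis, and nucleotide exchange factors release it. When unfolded protein builds up, as on heating or on damage by reactive chemicals, heat shock factor HSF1 is freed from chaperones and switches on the inducible members. HSPA1A and HSPA1B are the main inducible HSP70s, HSPA6 is an inducible member that is nearly silent in unstressed cells, and HSPA1L is a relative known mainly from testis. HSPA8 (HSC70) is the abundant constitutive form, and HSPA4 and HSPH1 belong to the related HSP110 class, whose members serve HSP70 as exchange factors.

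HSF1 binds repeats of the unit GAA in alternating orientation, so the stretch of 250 bases upstream of each RefSeq start (GRCh38.p14) was searched for 2 units facing each other. The forms searched were GAANNTTC and TTCNNGAA, each of which reads the same on both strands, and for 3 units in a row 2 such forms sharing their middle unit. Of 35116 windows of this length, 11.6% held a 2-unit match and 0.441% (155 windows) a 3-unit match. HSPA1A held 1 two-unit match and HSPA1B 1, the same 8 bases at positions -106 to -99 and -105 to -98 from the start. The HSPA1L match is the same site as that of HSPA1A, because these neighbouring genes are read in opposite directions from overlapping windows. HSPA6 held 3 two-unit matches, and the pair at -74 to -62 made a 3-unit match. HSPA8 held 4, which made 3-unit matches at -230 to -218 (GAAAGTTCCAGAA) and at -55 to -43 (TTCTGGAAGGTTC). The HSPA8 window (chr11:123062137-123062386, minus strand) lies within the gene span given below, so its positions count from a start that is not the outermost one. HSPA4 and HSPH1 held no match, which says only that these letters are not in this window. The windows of the 3 inducible genes are printed because those genes stood furthest above control in the results, with the matches in capitals. The first pair stops at -81, short of an upstream start in the GENCODE annotation.
HSPA1A, chr6:31815293-31815462, plus strand: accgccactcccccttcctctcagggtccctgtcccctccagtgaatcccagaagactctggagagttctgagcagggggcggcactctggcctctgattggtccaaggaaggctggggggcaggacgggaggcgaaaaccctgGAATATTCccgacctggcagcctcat
HSPA1B, chr6:31827488-31827657, plus strand: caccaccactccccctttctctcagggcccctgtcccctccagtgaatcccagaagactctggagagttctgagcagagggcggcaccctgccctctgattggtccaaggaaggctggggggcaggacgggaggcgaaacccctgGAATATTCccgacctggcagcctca
HSPA6, chr1:161524290-161524539, plus strand: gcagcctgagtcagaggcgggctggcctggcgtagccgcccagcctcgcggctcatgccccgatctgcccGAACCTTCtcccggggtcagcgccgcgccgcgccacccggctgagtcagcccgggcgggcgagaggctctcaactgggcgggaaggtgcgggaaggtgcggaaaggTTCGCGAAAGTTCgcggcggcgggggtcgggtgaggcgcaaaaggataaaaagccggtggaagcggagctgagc
The HSPA1A and HSPA1B stretches were identical at 162 of 171 aligned positions (94.7%). Over the whole windows the identity was 93.6%, against 45.6% to 54.3% for the other pairs of members.

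The same likeness runs through the transcripts, which bears on how far 50-base reads can be assigned to 1 gene. In GENCODE transcripts, 72.6% of the 50-base stretches of HSPA1A were also found in another gene, all of them in HSPA1B. The share was 73.5% for HSPA1B and 45.5% for HSPA6, in the latter case with HSPA7. It was 15.4% for HSPA8, mainly with its pseudogenes, 2.44% for HSPA1L, and 0 for HSPA4 and HSPH1. The split between HSPA1A and HSPA1B, and that between HSPA6 and HSPA7, is therefore uncertain. HSPA1A lies at chr6:31815543-31817942, HSPA1B at chr6:31827738-31830254 and HSPA1L at chr6:31809619-31815283. HSPA6 lies at chr1:161524540-161526894, HSPA8 at chr11:123057489-123062462, HSPA4 at chr5:133052013-133106449 and HSPH1 at chr13:31134973-31162388.

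Across libraries, FPKM values summed to between 199985 and 220259 (median 207976) and 7598 to 7944 genes reached 1 FPKM. The files hold no counts, so the depth behind a value is unknown. Wells of a group correlated at 0.9835 or more, the lowest value being among the electronic heater wells at 24 h, which also stood apart on the second principal component (20.2 to 34.8, against at most 10.3 in other wells). Of the epithelial markers, KRT8, KRT18 and KRT19 were expressed, while EPCAM (at most 0.895 FPKM), CDH1 (0.156) and KRT5 (0.061) were below the filter. The fibroblast markers COL1A1, COL1A2, PDGFRB and THY1 were expressed (4 of 7) and, of immune markers, CD14 and CD68 (2 of 5). No endothelial, ciliated, secretory or red blood cell marker was.

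In control wells the constitutive members dominated. At 2 h, HSPA8 stood at 548.5 ± 12.7 FPKM (SD, n = 3 wells here and below), HSPA4 at 74.7 ± 0.141 and HSPH1 at 38.2 ± 4.39. HSPA1A stood at 14.1 ± 0.340 and HSPA1B at 14.9 ± 0.419. HSPA6 lay between 0.054 and 0.128 FPKM in the 3 wells. FPKM corrects for length, but the HSPA1A level depends on how reads shared with HSPA1B were split, so its ratio to other members is approximate. As listed, outside the electronic heater groups, HSPA8 was 30.2 to 51.7 times HSPA1A in the 24 wells (median 41.2). Between the control groups at 24 h and 2 h none of the 7 members passed the test, in a comparison that called 16.9% of all tested genes. Their differences ran from -0.16 for HSPA1L to 0.14 for HSPA8 on the log2(FPKM + 1) scale, which is the scale of every log2 difference below.

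**Figure D1:**
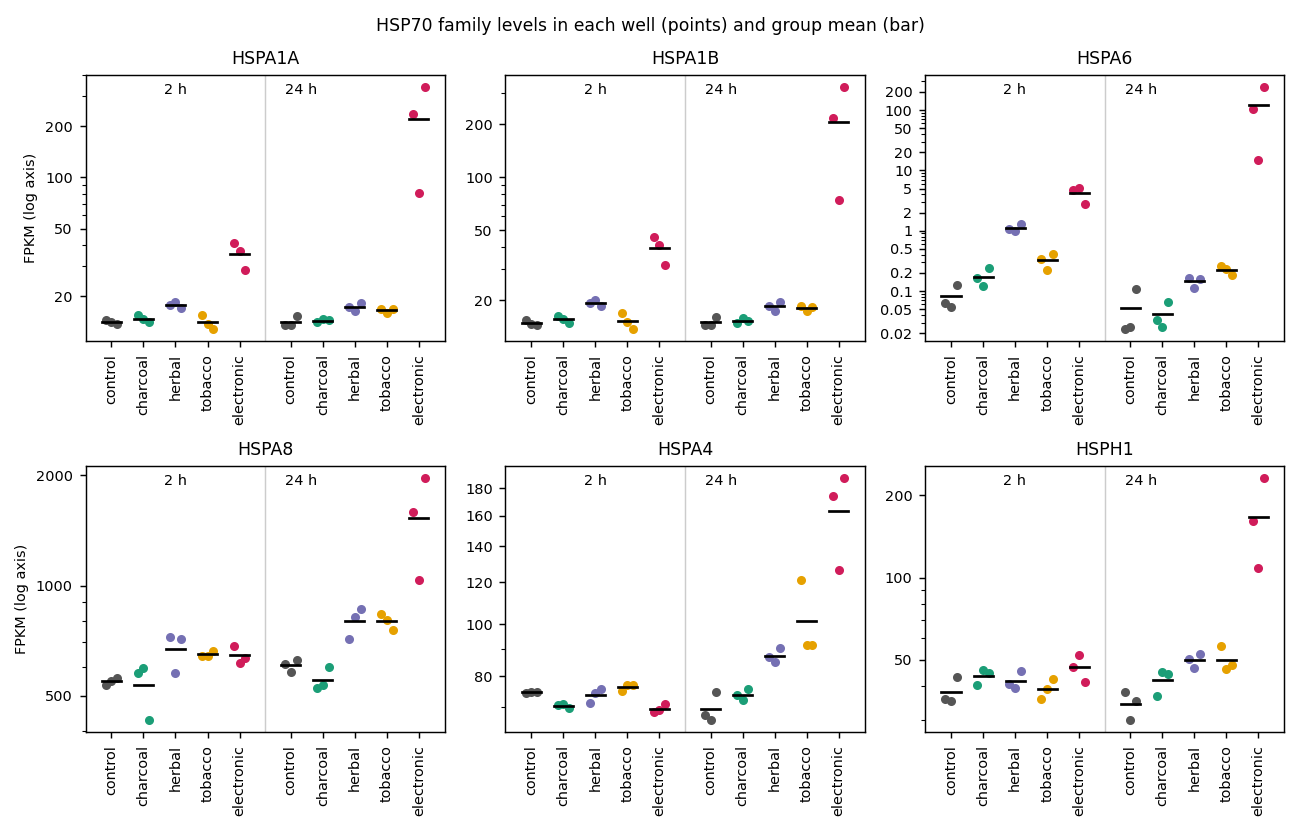
Level of 6 HSP70 genes in each of 30 wells, in FPKM on a log axis, by condition and time; points are wells and bars are group means of 3 wells, with "tobacco" standing for tobacco shisha on charcoal and "electronic" for tobacco shisha on the electronic heater. The electronic heater wells at 24 h are the highest of all groups in every panel, from 81.4 to 340.6 FPKM for HSPA1A, while HSPA1L, listed at 0 in 20 libraries, is left out.

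At 2 h after tobacco shisha on the electronic heater, the inducible members rose and the others did not pass the test. HSPA1A stood at 41.0, 37.1 and 28.6 FPKM against 14.5, 14.1 and 13.8 in control wells. All 3 exposed wells lay above all control wells, the lowest at 1.98 times the highest control, and HSPA1A rose by 1.26 (SE 0.27, limma adjusted p = 0.000816), or 2.52 times the control mean. How many of all tested genes were separated in this way was not counted for this comparison. HSPA1B, with 45.8, 41.2 and 31.8 FPKM against 15.4, 14.7 and 14.6, rose by 1.34 (SE 0.28, adjusted p = 0.00063). With the FPKM of both genes summed, the rise was 1.33 (adjusted p = 0.000595).

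HSPA6, nearly silent in control wells at 0.063, 0.054 and 0.128 FPKM, stood at 4.82, 5.20 and 2.78 FPKM in the same exposed wells. It rose by 2.25 (SE 0.50, adjusted p = 0.00115), or by 4.56 with 0.1 in place of 1 added to each FPKM, because the addition shrinks differences of genes near or below 1 FPKM. These 3 calls out of 7 members stood in a comparison that called 34.0% of all tested genes. HSPA6 passed the filter only through groups in which it was high, this one among them, so its call is no support. HSPA8 (difference 0.23, 95% interval -0.07 to 0.54) and HSPH1 (0.29, -0.06 to 0.63) did not pass. HSPA8 was called with the compared groups fitted alone (adjusted p = 0.0172), and HSPH1 in the fit without the 24 h electronic heater wells that is described further on (adjusted p = 0.0385). HSPA4 differed by -0.10 (-0.30 to 0.10). Well 3 was the lowest of the group for HSPA1A, HSPA1B, HSPA6 and HSPH1.

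By 24 h after the same exposure, all 5 members that were expressed throughout had risen, and HSPA6 had gone from near silence to 14.9 FPKM or more in each well. Counting HSPA1L, described below, 7 of 7 members were called higher. The calls of HSPA6 and HSPA1L are no support, since both passed the filter only through groups in which they were high. The comparison called 63.8% of all tested genes, with a median difference over them of 0.03, so calls alone say little about the family, and the sizes follow. HSPA1A stood at 234, 81.4 and 340.6 FPKM against 13.7, 13.6 and 15.3 in control wells. The mean was 218.7 ± 130.3 FPKM, 15.4 times control, and the lowest exposed well was 5.33 times the highest control well. The rise was 3.63 (SE 0.27, adjusted p = 1.23e-10). Here and below, SEs and p-values of this group are too small, because its wells spread widely, as described further on. HSPA1B, at 216.2, 73.9 and 328 FPKM against 14.4, 14.5 and 16.1, rose by 3.45 (SE 0.28, adjusted p = 4.41e-10).

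HSPA6 showed the greatest difference of the members, with 103.4, 14.9 and 244.4 FPKM against 0.023, 0.025 and 0.109 in control wells. It rose by 6.14 (SE 0.50, adjusted p = 4.97e-10), and by 8.93 with 0.1 added in place of 1. The ratio to control rests on values close to 0 and is not given. HSPA7, a near-identical relative of HSPA6 on the same chromosome, was listed at 39.1, 5.99 and 91.4 FPKM in the same wells and at no more than 0.059 in control wells.

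The constitutive form, already the most abundant member, rose by a smaller ratio. HSPA8 stood at 1586, 1038 and 1969 FPKM against 610.1, 582.3 and 626.6, a rise of 1.29 (SE 0.15, adjusted p = 8.15e-08), and its mean was 2.53 times control. Of the exchange factors of the HSP110 class, HSPH1 went from 38.3, 30.0 and 35.3 FPKM to 160.9, 108.0 and 231.7, a rise of 2.18 (SE 0.17, adjusted p = 1.83e-10). HSPA4 went from 67.7, 66.1 and 74.9 FPKM to 174, 126.5 and 188.2, a rise of 1.20 (SE 0.10, adjusted p = 5.63e-10). For HSPA8, HSPH1 and HSPA4 the exposed and control wells did not overlap, and the lowest exposed well stood at 1.66, 2.82 and 1.69 times the highest control well. The share of all tested genes without overlap was not counted for this comparison. In RNA from whole wells, a higher level in every cell and a much higher level in a share of the cells cannot be told apart.

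**Figure D2:**
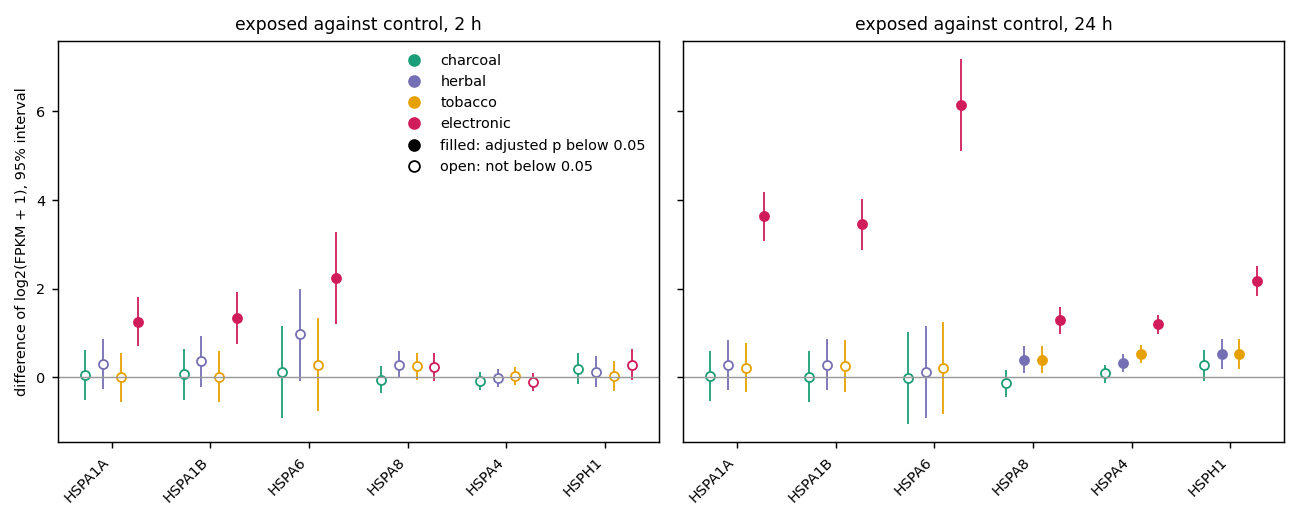
Difference of each exposure from the control of its time, on the log2(FPKM + 1) scale, with its 95% interval from the fit over 30 libraries, for 6 HSP70 genes at 2 h (left) and 24 h (right). Filled points have an adjusted p below 0.05: the electronic heater gives 3 filled points at 2 h and 6 at 24 h, with HSPA6 at 6.14 the highest. Intervals of the electronic heater at 24 h are too narrow, because its wells spread more than the pooled fit assumes. Those of HSPA1A, HSPA1B and HSPA6 in the other comparisons are too wide for the same reason.

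The 3 electronic heater wells at 24 h differed widely from each other, and they did so in the same order for all 6 members other than HSPA1L. Well 3 was the highest and well 2 the lowest for each. The highest well was 16.4 times the lowest for HSPA6, 4.18 times for HSPA1A, 4.44 times for HSPA1B, 2.15 times for HSPH1, 1.90 times for HSPA8 and 1.49 times for HSPA4. The spread was thus widest for the inducible genes. The order was also found outside the family, in the co-chaperone genes DNAJB1 (3.06 times) and DNAJA4 (3.04 times), in the small heat shock protein gene HSPB8 (3.84 times) and in CHORDC1 (1.89 times). Only these genes and HSPA7, which had the order too, were checked beside the members. The share of all tested genes with this order was not counted. Well 2 also lay nearest to the other groups on the second principal component. Summed FPKM in the 3 wells ran only from 208981 to 210574. Every well remained above control, well 2 at 5.75 times the control mean for HSPA1A and at 1.82 times for HSPA4. The summed fibroblast markers were at their lowest in this group (145.9 FPKM against 316.7 in the 24 h control), and the summed epithelial markers stood at 806.4 against 964.8. The part of these shifts in the family's rise was not tested.

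**Figure D3:**
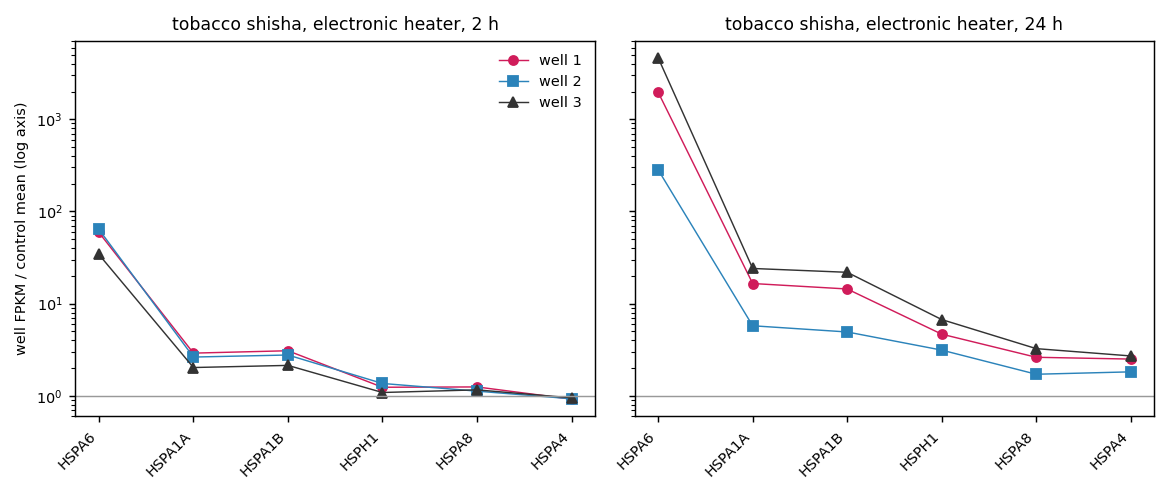
Level of 6 HSP70 genes in each electronic heater well, divided by the control mean of the same time, on a log axis, at 2 h (left) and 24 h (right); each line is 1 well, and the grey line marks the control mean. At 24 h the lines do not cross: well 3 is highest and well 2 lowest for each gene, at 24.1 and 5.75 times control for HSPA1A.

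The fit pools the spread of a gene over all 10 groups, so the wide spread of these 3 wells enters the SE of every comparison of HSPA1A, HSPA1B and HSPA6. Within these wells the SD of log2(FPKM + 1) was 1.06 for HSPA1A, 2.02 for HSPA6 and 0.302 for HSPA4. In the 24 h control wells it was 0.089, 0.066 and 0.094. For comparisons with the electronic heater at 24 h, interactions included, the pooled SE is therefore too small and the p-value too low. A fit without the electronic heater wells at 24 h was added after seeing the data, and its calls are given beside the first ones where they differ. In comparisons that do not involve these wells, the pooled SE of HSPA1A, HSPA1B and HSPA6 is too large and their intervals are too wide. For herbal shisha against control at 2 h, the SE of HSPA1A was 0.27 in the first fit and 0.09 in the added one.

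At 2 h after herbal shisha on charcoal, none of the 7 members passed, in a comparison that called 38.2% of all tested genes. The wells of 5 of the 7 members did not overlap those of control, as was the case for 58.9% of all tested genes. HSPA6 stood at 1.05, 0.998 and 1.3 FPKM, all above the highest control well at 0.128. HSPA1A stood at 17.8, 18.5 and 17.0 FPKM against 13.8 to 14.5 in control wells, a difference of 0.31 (95% interval -0.25 to 0.87). HSPA8, at 724.3, 578.3 and 716.5 FPKM against 535.2 to 560.6, differed by 0.29 (-0.02 to 0.59). Without the electronic heater wells at 24 h, 4 members were called here: HSPA6 (0.97, adjusted p = 1.57e-06), HSPA1B (0.36, adjusted p = 0.00293), HSPA1A (0.31, adjusted p = 0.00658) and HSPA8 (0.29, adjusted p = 0.0248). With 0.1 added in place of 1, HSPA6 alone was called (2.76, adjusted p = 0.000406), and with median-of-ratios scaling of the libraries HSPA8 alone (0.40, adjusted p = 0.0436).

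At 2 h after charcoal alone and after tobacco shisha on charcoal no member passed either, where 24.4% and 35.2% of all tested genes did. After charcoal alone, HSPA1A was at 14.2 to 15.5 FPKM and HSPA8 at 429.1 to 597 FPKM, and the wells of 1 of the 7 members did not overlap those of control, against 51.9% of all tested genes. That member was HSPA4, which differed by -0.08 (95% interval -0.29 to 0.12), with its 3 wells at 69.8 to 70.9 FPKM, below the control wells at 74.5 to 74.8. After tobacco shisha on charcoal, HSPA1A was at 15.6, 13.9 and 12.9 FPKM, on both sides of control (interval -0.56 to 0.56). HSPA8, at 643.7, 643.0 and 664.7 FPKM against 535.2 to 560.6 in control wells, differed by 0.25 (-0.06 to 0.55). It was called with the compared groups fitted alone (adjusted p = 0.00133). HSPA6 was at 0.335, 0.225 and 0.408 FPKM, above the 3 control wells but below the 3 herbal shisha wells. These levels are below 1 FPKM at unknown depth, and the share of all tested genes so separated was not counted for this exposure.

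At 24 h after herbal or tobacco shisha on charcoal, the members called in the fit over all groups were HSPA8, HSPA4 and HSPH1. HSPA1A and HSPA1B were called as well in the fit without the electronic heater wells at 24 h, as given below. These calls therefore do not set the inducible members apart from the others. After tobacco shisha on charcoal, 3 of 7 members were called, against 44.5% of all tested genes. HSPA4 stood at 121.4, 91.6 and 91.7 FPKM against 66.1 to 74.9 in control wells and rose by 0.53 (SE 0.10, adjusted p = 0.000157). Well 1 stood apart, and without it the rise was 0.39 (adjusted p = 0.00222). HSPH1, at 56.2, 46.2 and 47.8 FPKM against 30.0 to 38.3, rose by 0.53 (SE 0.17, adjusted p = 0.013). HSPA8, at 837, 805.8 and 756.4 FPKM against 582.3 to 626.6, rose by 0.40 (SE 0.15, adjusted p = 0.0318). The HSPA8 and HSPH1 calls each depended on single wells: both were lost without control well 2 (adjusted p = 0.0901 and 0.072) or without exposed well 1 (0.0985 and 0.0707). That of HSPA8 was also lost without control well 1 (0.0637) or exposed well 2 (0.0674), with no filter (0.0599) and with median-of-ratios scaling (0.0566).

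After herbal shisha on charcoal at 24 h, the same 3 members were called, against 26.8% of all tested genes. HSPH1 rose by 0.52 (SE 0.17, adjusted p = 0.0229), with 50.5, 46.8 and 52.3 FPKM. HSPA4 rose by 0.33 (SE 0.10, adjusted p = 0.0167), with 86.8, 85.1 and 90.4 FPKM. HSPA8 rose by 0.40 (SE 0.15, adjusted p = 0.0492), with 716.7, 821.2 and 864.7 FPKM. All exposed wells of these genes lay above all control wells. Wells that do not overlap are common in these data. They were found for 35.2% to 58.9% of all tested genes in the comparisons where this was counted, which do not include this one. No member was called without control well 2 or without exposed well 3, and only HSPH1 was without control well 1. The adjusted p of HSPH1 was 0.117 without control well 2 and 0.0802 without exposed well 3. The HSPA8 call did not hold in 5 of the 6 settings that left out a well, with adjusted p between 0.0693 and 0.171, nor with 0.1 added in place of 1 (0.0505), with no filter (0.0916), with median-of-ratios scaling (0.083) or with transcripts summed by name (0.0501).

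HSPA1A and HSPA1B were only slightly higher in the shisha groups on charcoal at 24 h. HSPA1A was at 17.3, 16.5 and 18.3 FPKM after herbal and at 17.0, 16.0 and 16.8 FPKM after tobacco shisha, against 13.7, 13.6 and 15.3 in control wells. The groups did not overlap, which was not counted over all tested genes here, and neither difference passed (0.28, 95% interval -0.28 to 0.84, and 0.22, -0.34 to 0.78). In the fit without the electronic heater wells at 24 h both were called (adjusted p = 0.0202 and 0.0457), as was HSPA1B (0.29, adjusted p = 0.021, and 0.26, adjusted p = 0.0224). HSPA6 was at 0.114 to 0.165 FPKM after herbal and 0.182 to 0.265 FPKM after tobacco shisha, above control wells at up to 0.109. At such levels the depth, which is unknown, limits what a difference shows. After charcoal alone at 24 h no member passed, the comparison called 9.87% of all tested genes, and the wells of all 7 members overlapped those of control. Over all tested genes, 35.2% did not overlap there.

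HSPA1L could not be read with any certainty. It was listed on 5 transcripts, and the one with the highest mean was at 0 in 20 of 30 libraries, including every control and tobacco-on-charcoal well at 24 h. In the electronic heater wells at 24 h it was listed at 4.27, 0 and 1.91 FPKM, and the call there (difference 1.31, adjusted p = 0.00597) rests on wells 1 and 3, while well 2 is at 0 like the control wells. Fitted on the compared groups alone it did not pass (adjusted p = 0.085). The next 3 transcripts were at 0 in 25 libraries and at 6.15 to 6.17 FPKM in well 3 alone of that group, and the fifth was at 0 throughout. Values of 0 may be failed estimates. HSPA1B was listed on 4 transcripts with means of 35.2 to 37.8 FPKM, which moved together.

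The ratio of HSPA1A to HSPA1B, which the shared stretches make uncertain in size, differed between the groups. It was 1.04 to 1.10 in the 3 electronic heater wells at 24 h and 0.894 to 0.902 in those at 2 h. In the 24 wells of the other groups it lay between 0.910 and 0.960, so that HSPA1A exceeded HSPA1B only in the 3 electronic heater wells at 24 h. HSPA6 was 0.183 to 0.717 times HSPA1A in the latter wells, 0.097 to 0.140 times in the electronic heater wells at 2 h, and at most 0.076 times elsewhere. HSPA8, by contrast, was only 5.78 to 12.8 times HSPA1A in the electronic heater wells at 24 h.

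**Figure D4:**
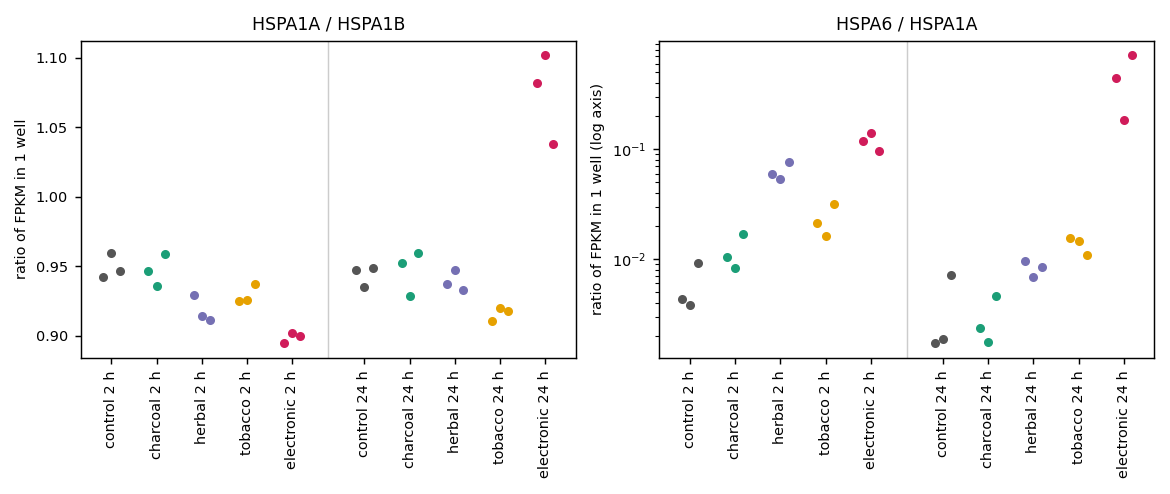
Ratio of FPKM between members in each of 30 wells, HSPA1A over HSPA1B (left, linear axis that does not start at 0) and HSPA6 over HSPA1A (right, log axis), by condition and time. The left ratio is above 1 in the 3 electronic heater wells at 24 h, and the right ratio reaches 0.717 there.

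Direct comparisons between exposures placed the electronic heater apart from charcoal. At 2 h, tobacco shisha on charcoal was lower than tobacco shisha on the electronic heater for 3 of 7 members, in a comparison that called 23.3% of all tested genes. HSPA1A was lower by a difference of -1.26 (SE 0.27, adjusted p = 0.0016), HSPA1B by -1.31 (adjusted p = 0.00155) and HSPA6 by -1.96 (adjusted p = 0.0066). At 24 h all 7 were called lower, where 47.8% of all tested genes were called, from -5.92 for HSPA6 and -3.42 for HSPA1A to -0.89 for HSPA8 and -0.67 for HSPA4. The electronic heater against charcoal alone gave 3 of 7 members higher at 2 h (34.8% of all tested genes called) and 7 of 7 at 24 h (63.0%). In the fit without the electronic heater wells at 24 h, HSPA8 was also called at 2 h (0.28, adjusted p = 0.0284). HSPA1A differed by 1.20 and 3.61 at these times and HSPA6 by 2.13 and 6.15. The electronic heater was used only with tobacco shisha, so the device and the smoke made with it cannot be told apart.

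Herbal and tobacco shisha on charcoal did not differ detectably for any member at either time, where 0.61% of all tested genes were called at 2 h and 5.12% at 24 h. The intervals of the tobacco-minus-herbal difference come from the fit over all groups and are widened by the spread of the electronic heater wells at 24 h. They ran at 24 h from -0.62 to 0.50 for HSPA1A, from -0.30 to 0.31 for HSPA8 and from -0.34 to 0.35 for HSPH1. For HSPA4 the difference was 0.20 (adjusted p = 0.228), and for HSPA6 at 2 h it was -0.68 (-1.71 to 0.36). The latter was called in the fit without the electronic heater wells at 24 h (adjusted p = 0.0111). Adding herbal shisha to charcoal gave no called member at 2 h (24.4% of all tested genes called) and 1 at 24 h (31.5%), HSPA8, with 716.7 to 864.7 FPKM against 526.8 to 598.6 (0.53, SE 0.15, adjusted p = 0.00854). In the fit without the electronic heater wells at 24 h, HSPA6, HSPA1A, HSPA1B and HSPA8 were called at 2 h (0.85, 0.25, 0.29 and 0.34), and HSPA1A, HSPA1B and HSPA4 beside HSPA8 at 24 h (0.25, 0.26 and 0.24).

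Whether an effect differed between the times was tested as an interaction. For the electronic heater the effect at 24 h exceeded that at 2 h for 6 of 7 members, where 57.6% of all tested genes were called: by 3.89 for HSPA6 (SE 0.71, adjusted p = 6.8e-05), 2.37 for HSPA1A, 2.11 for HSPA1B, 1.89 for HSPH1, 1.3 for HSPA4 and 1.05 for HSPA8. For tobacco shisha on charcoal 1 of 7 was called (41.1% of all tested genes), HSPA4 with 0.50 (SE 0.14, adjusted p = 0.00669). With median-of-ratios scaling, which brings the typical gene to the same level in every library, the HSPA4 value was 0.35 (adjusted p = 0.0633). The median of all tested genes in this interaction was 0.13. For herbal shisha and charcoal alone no member was called, where 32.3% and 23.2% of all tested genes were. The fit without the electronic heater wells at 24 h called 3 members for herbal shisha, HSPA6 (-0.84, adjusted p = 0.000655), HSPA4 (0.34, adjusted p = 0.0105) and HSPH1 (0.39, adjusted p = 0.0494). It also called HSPH1 for tobacco shisha on charcoal (0.49, adjusted p = 0.0126).

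The order of group means shows how these pieces combine. For HSPA1A the electronic heater groups led, at 24 h and then at 2 h, followed by herbal shisha at 2 h and at 24 h and tobacco shisha on charcoal at 24 h (17.8, 17.4 and 16.6 FPKM), which overlapped as neighbours. The other 5 groups lay between 14.1 and 14.8 FPKM and overlapped as neighbours. For HSPA8, HSPA4 and HSPH1 the order at the top was the electronic heater and the 2 shisha groups on charcoal, all at 24 h. HSPA4 at 2 h after the electronic heater was the lowest of its 10 means (69.6 ± 1.19 FPKM), beside the 24 h control (69.6 ± 4.65 FPKM).

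The partners of HSP70 were described from 5 lists, chosen with earlier results of these data known, by their counts and their median. Their counts are to be read against the shares of all tested genes called, which at 24 h were 63.8% after the electronic heater, 44.5% after tobacco shisha on charcoal, 26.8% after herbal shisha and 9.87% after charcoal alone. At 2 h these shares were 34.0%, 35.2%, 38.2% and 24.4% in the same order. All of them count calls in both directions. In the same order, 2922, 2206, 1406 and 516 of the 8531 genes were called higher at 24 h, and 791, 725, 901 and 696 at 2 h. Of the J-domain co-chaperones, which hand clients to HSP70, 8 of 9 were tested. At 24 h after the electronic heater 7 of 8 rose and none fell, where 63.8% of all tested genes were called, with a median difference of 0.94 against 0.03 over all tested genes. DNAJA4 rose by 3.24 (from 4.43 ± 0.151 to 55.4 ± 27.0 FPKM), DNAJA1 by 1.37, DNAJC7 by 0.66 and DNAJA2 by 0.56. After tobacco shisha on charcoal 4 of 8 rose (44.5% of all tested genes called), after herbal shisha 2 (26.8%) and after charcoal alone 1 (9.87%), and none fell. These counts are of genes that rose, and compare with the 2206, 1406 and 516 of 8531 genes called higher. At 2 h, DNAJB1, the main J-domain partner of inducible HSP70, rose after 3 of the 4 exposures. It stood at 56.6 ± 2.26 FPKM in control and at 152.2 ± 17.3 after the electronic heater (1.41, adjusted p = 1e-05), 107.4 ± 4.51 after herbal shisha (0.91, adjusted p = 0.00108) and 95.7 ± 7.86 after tobacco shisha on charcoal (0.74, adjusted p = 0.0062). After charcoal alone it was at 73.7 ± 3.41 FPKM and did not pass (0.37, adjusted p = 0.193). DNAJB4 rose after all 4 exposures at 2 h (0.60 to 0.84), and DNAJB5 fell after all 4 (differences of -0.38 to -0.18).

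Of the exchange factors and adaptors, 7 of 9 were tested. At 24 h after the electronic heater 4 of 7 rose (median 0.38), where 63.8% of all tested genes were called and 2922 of 8531 were called higher. STIP1, which links HSP70 to HSP90, rose by 1.38 (from 103.2 ± 5.38 to 271.5 ± 39.7 FPKM), BAG4 by 0.66, BAG2 by 0.38 and HSPBP1 by 0.27. After tobacco shisha on charcoal 3 rose (44.5% of all tested genes called) and after herbal shisha 2 (26.8%), STIP1 among them each time (0.43 and 0.32). At 2 h after the electronic heater HSPBP1 rose (0.23) and BAG5 fell (difference -0.22), and after herbal shisha BAG2 rose (0.22). None of this list was called after charcoal alone at either time, or after tobacco shisha on charcoal at 2 h.

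Of the other genes known as HSF1 targets, 10 of 12 were tested, and 10 of 10 rose at 24 h after the electronic heater, with a median of 1.40. The comparison called 63.8% of all tested genes, with a median of 0.03. FKBP4, a co-chaperone of HSP90, rose by 1.91 (from 31.9 ± 3.90 to 126.1 ± 38.4 FPKM), CHORDC1 by 1.86, the mitochondrial chaperonin gene HSPD1 by 1.35 and AHSA1, an activator of HSP90, by 1.24. After tobacco shisha on charcoal 6 of 10 rose (FKBP4 by 0.85, CHORDC1 by 0.59), where 44.5% of all tested genes were called. After herbal shisha 4 rose (0.51 and 0.50), against 26.8%, and after charcoal alone none, against 9.87%. At 2 h, HSPB8 rose after charcoal alone (0.98), the electronic heater (0.97) and herbal shisha (0.70), and HSP90AA1 fell after herbal shisha (difference -0.52, adjusted p = 0.0315). HSPB8 lay at 0.698 to 0.995 FPKM in the 2 h control wells, below the filter, and at 1.36 FPKM or more in exposed wells. HSPB8 reached the filter level in groups where it was high, so its calls are no support, also within the 10 of 10 at 24 h. The list holds no other call at 2 h.

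Among the heat shock factors and their regulator, 2 of 4 were tested. At 24 h after the electronic heater HSF2 rose by 0.30 and HSBP1, a small protein that binds heat shock factors, by 0.17. At 2 h HSF2 fell after charcoal alone (difference -0.22, adjusted p = 0.045). HSF1 was not analysed here. Of the other HSP70 genes, 8 of 10 were tested and 7 rose at 24 h after the electronic heater (median 0.56), where 63.8% of all tested genes were called. Of the 7, 1 is HSPA7 (4.84), which reached 1 FPKM in 6 libraries and so passed the filter only through the electronic heater groups, and its call is no support. Among the others were the mitochondrial HSPA9 by 1.03, HSPA5 of the endoplasmic reticulum by 0.74 and the ribosome-associated HSPA14 by 0.55. HSPA5 had another order at 2 h: it rose after charcoal alone, from 190.5 ± 4.75 to 316.6 ± 15.3 FPKM (0.73, adjusted p = 2.33e-09), and by 0.37 after herbal and 0.23 after tobacco shisha, and did not pass after the electronic heater (0.14, adjusted p = 0.0661).

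**Figure D5:**
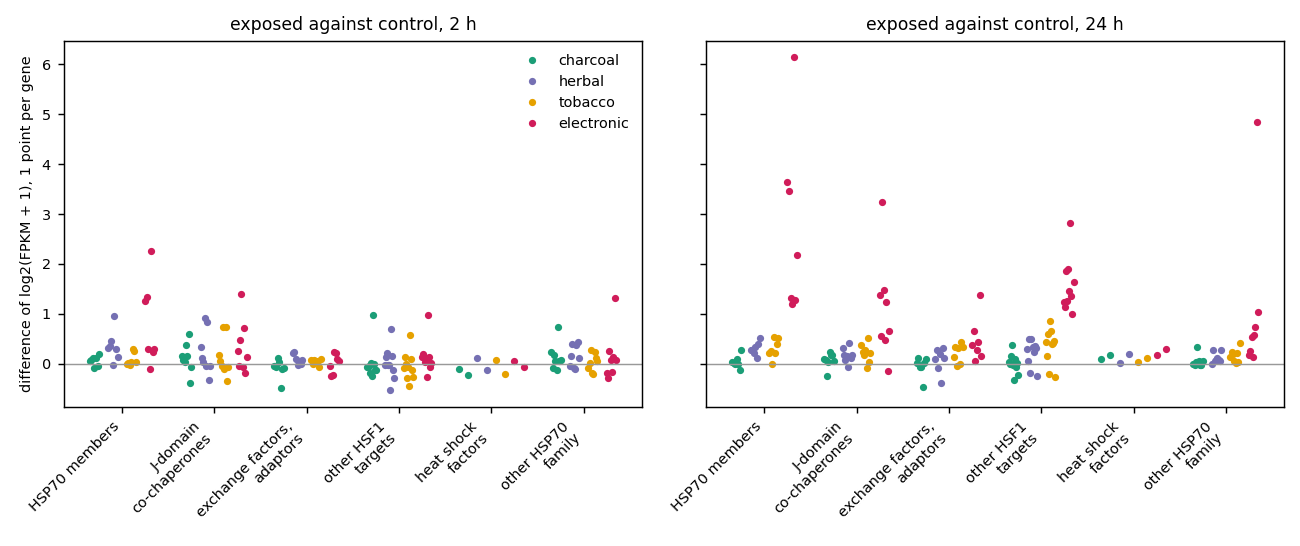
Difference from the control of the same time on the log2(FPKM + 1) scale for every tested gene of the HSP70 family and of 5 partner lists, at 2 h (left) and 24 h (right); each point is 1 gene and colours give the exposure. At 24 h the electronic heater points of the HSF1 targets all lie above 0, with a median of 1.40, and HSPA7 at 4.84 is the highest point among the other HSP70 genes.

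The tested genes whose group means most resembled those of a member were named by Pearson's r over the 10 group means, among 5474 genes whose means spanned at least 0.5. These correlations are a description, since 1 group dominates them, and r over the other 9 groups is given as well. Closest to HSPA1A were HSPA7 (r = 0.9941, and 0.96 without the electronic heater group at 24 h), SAP30BP (0.989, 0.91), DNAJA4 (0.9798, 0.87), TNFRSF10D (0.9762, 0.76) and ZFAS1 (0.9693, 0.70). Closest to HSPH1 were NGFR (0.984, 0.76), DNAJA1 (0.9832, 0.84), TSPYL2 (0.9826, 0.73), PLEKHA3 (0.9811, 0.77) and CHORDC1 (0.9786, 0.82). For HSPA8 they were transcripts listed as SNORA105A (0.9912, 0.96) and SNORA105C (0.9826, 0.92), with HSPD1 (0.9851, 0.93), PGRMC1 (0.9818, 0.92) and YTHDF2 (0.9802, 0.92) beside them. For HSPA4 they were ABCF2 (0.988, 0.97), EDC3 (0.9879, 0.94), CAB39L (0.9872, 0.95), RALA (0.9869, 0.94) and ZNF410 (0.9863, 0.95). The HSPA8 and HSPA4 neighbours kept r of 0.92 or more without that group, whereas those of HSPH1 fell to between 0.73 and 0.84.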

How the data were processed

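The authors deposited 1 table of FPKM values per library, with no read counts, per the file headers; reads were aligned with HISAT2 2.1.0 to hg38 and quantified with StringTie 1.3.4d, per the submitters' processing notes. Annotation release and strand setting are not given in the sources used here. Each table lists 29190 transcripts; of several transcripts of a name the one with the highest mean was used. Values were taken as log2(FPKM + 1), with no further scaling. The test took the 8531 genes that reached 1 FPKM in 3 or more libraries; it was limma 3.58.1 (trend) in R 4.3.3, with 1 mean for each of 10 groups and no replicate block, which leaves 20 residual degrees of freedom. Two-sided p-values were adjusted by Benjamini-Hochberg within each contrast over all tested genes, and those with an adjusted value below 0.05 count as called; "rose" and "fell" are used only of called genes. All 7 members are named, and of each list at most 4 genes per time, those with the smallest p over the 4 exposures, beside genes that showed the order of the wells. The members and lists were chosen with earlier results of these data known. Comparisons with control share the control wells of their time. Alternatives were a pseudocount of 0.1, no filter, the compared groups alone, a replicate block, median-of-ratios scaling, transcripts summed by name, HSPA1A and HSPA1B summed, leaving out each library in turn and, added later, a fit without the electronic heater wells at 24 h. The script was tested on simulated data. Promoter sequences and gene positions come from RefSeq (GRCh38.p14), which held all 7 members, and shared stretches from GENCODE transcripts. DNAJB6, BAG1, BAG3, HSP90AB1, HSPB1, HSF1, HSF4, HYOU1, KRT7 and KRT17 were not analysed here.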

Additional observations from a re-analysis of the deposited data

Results flagged for a closer look

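The effect of tobacco shisha on the electronic heater differed between 2 h and 24 h for 6 of the 7 members by the interaction test in limma, each being greater at 24 h. The difference between the effects was 3.89 on the log2(FPKM + 1) scale for HSPA6, 2.37 for HSPA1A, 2.11 for HSPA1B, 1.89 for HSPH1, 1.3 for HSPA4 and 1.05 for HSPA8, and adjusted p-values ran from 8.84e-08 (HSPA4) to 0.000171 (HSPA8). Leaving out any 1 library ended none of these calls. These p-values are too low, because the pooled SE is smaller than the spread of the electronic heater wells at 24 h implies. For tobacco shisha on charcoal the effect on HSPA4 also differed between the times, by 0.5 (adjusted p = 0.00669), and by 0.36 (adjusted p = 0.0264) without exposed well 1 at 24 h. With median-of-ratios scaling that value was 0.35 and did not pass (adjusted p = 0.0633).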

How the results depend on the processing

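No result changed its direction while called. Counts of called members by the limma fit were 0 at 2 h after charcoal alone (1 with the compared groups fitted alone), 0 after herbal shisha (1 with a pseudocount of 0.1, 1 with median-of-ratios scaling, 5 with the groups alone, 4 without the electronic heater wells at 24 h) and 0 after tobacco shisha on charcoal (2 with the groups alone). At 24 h they were 3 after herbal and 3 after tobacco shisha on charcoal, and 5 in each case both with the groups alone and without those wells. Calls summed over the 4 comparisons between exposures at 2 h were 6, and 12 without those wells; control over time gave 0, and 1 with the groups alone; interactions gave 7, and 12 with the groups alone. Leaving out each library in turn gave 0 to 0 calls at 2 h after charcoal alone, herbal and tobacco shisha on charcoal, at 24 h after charcoal alone and for control over time. It gave 3 to 3 after the electronic heater at 2 h, 0 to 3 after herbal and 1 to 3 after tobacco shisha on charcoal at 24 h, 6 to 7 after the electronic heater at 24 h, 6 to 6 and 13 to 15 between exposures at 2 h and 24 h, and 7 to 8 for interactions. Numbers did not pair the wells (same-number correlations from -0.107 to 0.231, medians 0.026 and 0.043), and a fit with the replicate number as a block gave 16 calls between exposures at 24 h in place of 15 and 8 interactions in place of 7, HSPA4 being added both times (herbal shisha on charcoal). With median-of-ratios scaling the calls over all genes at 2 h went from mostly lower to at least as many higher: from 696 higher of 2081 to 975 of 1640 for charcoal alone, 901 of 3260 to 1784 of 3277 for herbal and 725 of 3001 to 1657 of 3033 for tobacco shisha on charcoal, and 791 of 2903 to 1584 of 3162 for the electronic heater. FPKM keep no depth, so no counting error can be given for HSPA6 and HSPA1L near 0.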
